A study of Rattus norvegicus with 6 samples.

Results

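The paraoxonases are a family of 3 genes, Pon1, Pon2 and Pon3, which lie side by side on rat chromosome 4. They were taken from the table as the features named exactly Pon1, Pon2 or Pon3, 3 of 27321 features in all. The family was chosen by a readout of these same libraries, the difference of Pon3 between the groups, so its STZ to control values are given as a description, with no test. RNA-seq was performed on the inner medulla tip of the kidney (IM tip, its innermost part toward the papilla), with 3 libraries from control and 3 from diabetic male Sprague-Dawley rats that were 3 months old. The diabetic rats received streptozotocin (STZ), a toxin that destroys the insulin-producing beta cells, at 62.5 mg/kg through the tail vein. Control rats received vehicle by the same route, and both groups were killed 15 days later. The STZ group is therefore a model of short-term insulin deficiency and not of insulin resistance. The labels do not say whether each library came from its own rat, so the spread between the 3 libraries of a group may be partly technical, and p-values measure that spread only.

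Paraoxonases are calcium-dependent lactonases. PON1, named for its hydrolysis of the insecticide metabolite paraoxon, is made mainly in liver and travels in blood on high-density lipoprotein (HDL). PON3 is also made in liver and carried on HDL, and it is found inside cells as well. PON2 is made in many tissues and stays within the cell, in the endoplasmic reticulum and mitochondria, where it limits lipid oxidation. All of them open lactone rings, including those of oxidised fatty acids and of bacterial signalling molecules.

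The family is read from the minus strand, and the sequence before each start site is shown as a description. The windows are the 250 bases upstream of the annotated start in RefSeq, build GRCr8, at chr4:34287861-34288110 for Pon1, chr4:34391685-34391934 for Pon2 and chr4:34350245-34350494 for Pon3. Capitals mark the GC box, GGGCGG, searched on both strands.
Pon1: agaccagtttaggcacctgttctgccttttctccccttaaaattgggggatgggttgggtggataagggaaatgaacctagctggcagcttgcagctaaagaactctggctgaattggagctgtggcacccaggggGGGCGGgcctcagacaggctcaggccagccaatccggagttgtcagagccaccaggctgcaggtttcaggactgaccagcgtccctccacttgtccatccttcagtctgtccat
Pon2: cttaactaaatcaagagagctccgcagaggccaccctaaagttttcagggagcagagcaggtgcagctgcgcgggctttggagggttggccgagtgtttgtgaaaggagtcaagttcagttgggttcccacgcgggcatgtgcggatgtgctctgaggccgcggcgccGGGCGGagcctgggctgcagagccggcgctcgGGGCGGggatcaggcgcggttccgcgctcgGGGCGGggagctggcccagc
Pon3: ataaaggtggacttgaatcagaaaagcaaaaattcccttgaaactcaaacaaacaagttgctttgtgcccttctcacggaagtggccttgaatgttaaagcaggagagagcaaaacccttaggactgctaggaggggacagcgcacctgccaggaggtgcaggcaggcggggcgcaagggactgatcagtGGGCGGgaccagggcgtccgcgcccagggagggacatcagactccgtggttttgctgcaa
The Pon2 window held 3 GC boxes, whose first bases lay 82, 50 and 20 bases before the start. The Pon1 and Pon3 windows held 1 each, 114 and 60 bases before it. At least 1 GC box was found in 30.5% of 33465 rat promoter windows of the same length. The Pon2 window was also the richest of the 3 in GC (66.4%, against 56.4% for Pon1, 54.8% for Pon3 and a median of 51.2% over all windows). It held 22 CpG dinucleotides, against 9 for Pon3, 3 for Pon1 and a median of 5. Another 6 motifs were searched on both strands, none of which contains another. CCAAT was found 3 times in the Pon1 window and not in those of Pon2 and Pon3 (34.0% of all windows hold it), and GCGTG once in the Pon2 window only (25.9%). TATAAA (12.9%), AGGTCA (14.1%), CACGTG (5.59%) and TGACNNNGC (10.1%) were found in none of the 3 windows. A match to these letters is a description of the sequence and does not show that a factor binds there. Whether GC boxes, GC content or CpG number bear on the level of a member was not tested.

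The libraries held between 3412311 and 5575171 reads on features. Values below are normalized counts, the reads of a feature divided by the authors' size factor for the library, so that 1 read was worth 0.763 to 1.11 normalized counts. The limma fit (moderated test on log2(normalized count + 1), Benjamini-Hochberg adjustment, threshold 0.05) was run over the 13486 features that averaged 5 normalized counts or more, and 283 of them (2.10%) differed between the groups. The control libraries all came from lane 3 and the STZ libraries from lanes 6, 7 and 8, so lane and diabetes cannot be told apart.

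Pon2 was the paraoxonase of the normal IM tip, with 91.4% or more of the paraoxonase reads in every control library. In diabetes Pon3 joined it: the Pon3 level was 16.5 times the control level, and the family total was 2.71 times as high. Pon1 stayed near the limit of detection in both groups.

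Pon3 (chr4:30000505-30027203 in rn4) was at 25.6, 30.5 and 13.4 normalized counts in control libraries 1 to 3 and at 439, 444 and 260.0 in STZ libraries 1 to 3. The lowest STZ library was far above the highest control library, and the groups did not overlap. The means were 23.2 ± 8.84 in the control group and 381 ± 105 in the STZ group (SD, n = 3). The fitted log2 fold change was 4.02 (SE 0.32), a 16.2-fold higher level. These values rest on 25, 40 and 12 reads in the control libraries and 473, 449 and 259 reads in the STZ libraries, so counting error weighs mostly on the control side. Pon3 ranked 6 of 13486 features from the highest log2 fold change.

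Pon2 (chr4:30033232-30068643 in rn4) was at 347, 339 and 319 normalized counts in control rats and at 708, 593 and 479 in STZ rats. The control libraries were close together, and each STZ library lay above them. The means were 335 ± 13.9 in the control group and 594 ± 115 in the STZ group (SD, n = 3). The fitted log2 fold change was 0.81 (SE 0.19), a 1.75-fold higher level, which ranked 774 of 13486 features. STZ 3 was the lowest STZ library for both Pon2 and Pon3. STZ 1 was the highest for Pon2. For Pon3, STZ 1 and STZ 2 were nearly equal (439 and 444 normalized counts, from 473 and 449 reads).

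Pon1 (chr4:29936317-29964862 in rn4), the best known member in blood, was at 0, 1.53 and 6.68 normalized counts in control rats and at 0.929, 1.98 and 2.01 in STZ rats. These are 0, 2, 6, 1, 2 and 2 reads, and only control 3 exceeded 3 reads. The groups overlapped, with means of 2.73 ± 3.50 and 1.64 ± 0.615 (SD, n = 3 each). No fold change is given, since the mean was 2.67 reads in the control and 1.67 reads in the STZ libraries, both under a floor of 3 reads. The count of 0 in control 1 allows up to 3.08 normalized counts. With a mean of 2.19 normalized counts, Pon1 did not reach the filter of 5 and was not tested.

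Of the 3 members, 2 passed the filter on low values. The fit placed 1 of these 2, Pon3, past the threshold, against 1.17% of all tested features that were higher in STZ rats. Both had every STZ library above every control library, against 10.1% of tested features. Pon3 was chosen on this contrast, and nothing is read from these counts. RNA came from whole tissue, so a difference in the number of cells of a type and one in RNA per cell cannot be told apart for any of these genes.

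**Figure D1:**
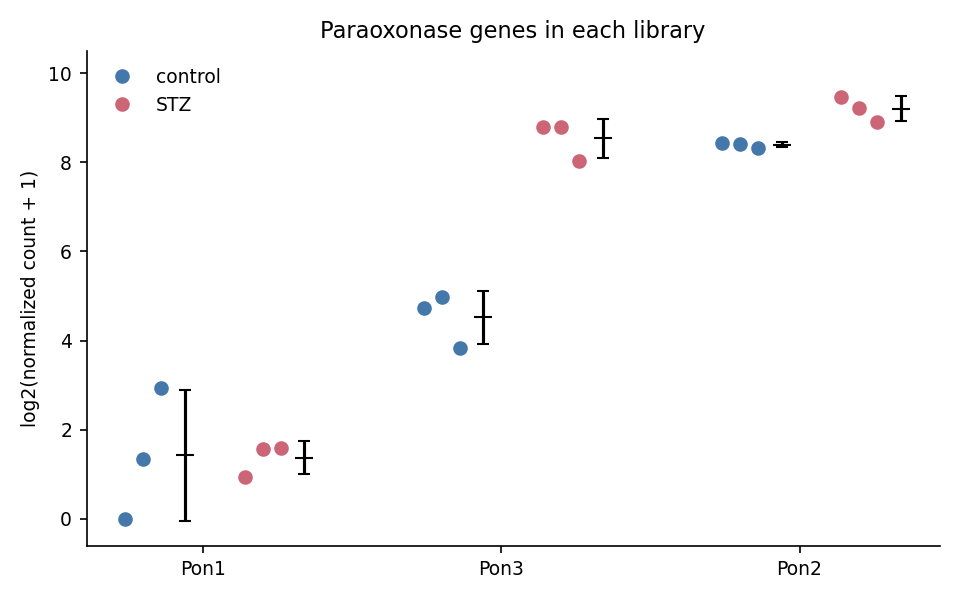
Normalized counts of Pon1, Pon2 and Pon3 in each of 3 control and 3 STZ libraries (points) on an axis of log2(normalized count + 1), with group means and SD of the log2 values (bars, n = 3). Pon3 moved from 13.4 to 30.5 in control libraries to between 260.0 and 444 in STZ libraries, while Pon1 was at most 6.68 in any library.

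Levels of different genes are set side by side per kilobase of locus, which includes introns, because transcript lengths were not used here. In control rats the order was Pon2 (9.46 ± 0.393 normalized counts per kb), Pon3 (0.868 ± 0.331) and Pon1 (0.0958 ± 0.123), with no overlap between Pon2 and Pon3 or between Pon3 and Pon1. In STZ rats it was Pon2 (16.8 ± 3.24), Pon3 (14.3 ± 3.93) and Pon1 (0.0574 ± 0.0215; SD, n = 3 throughout). On this scale the levels of Pon2 and Pon3 overlapped in STZ rats, the lowest Pon2 library (13.5) being below the highest Pon3 library (16.6). The overlap depends on the divisor: in normalized counts, with no division by length, the lowest Pon2 library (479) was above the highest Pon3 library (444). Pon2 was the higher of the pair in each of the 3 STZ libraries in normalized counts. Per kilobase it was higher in STZ 1 and STZ 3, while STZ 2 was nearly a tie (16.8 for Pon2, 16.6 for Pon3). The order in STZ 2 on that scale is therefore undecided.

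The ratio of Pon3 to Pon2 counts within a library does not depend on the size factor. It was 0.0740, 0.0901 and 0.0418 in control libraries 1 to 3 and 0.620, 0.748 and 0.543 in STZ libraries 1 to 3. The group means were 0.0686 ± 0.0246 and 0.637 ± 0.104 (SD, n = 3 each), and every STZ library was above every control library. Put the other way, control 3 held 23.9 Pon2 reads for each Pon3 read, and STZ 2 held 1.34.

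As a share of all paraoxonase reads, Pon3 made up 6.89% in control 1, 8.23% in control 2 and 3.93% in control 3. It made up 38.2%, 42.7% and 35.1% in STZ 1 to 3. The counting error of a single library is shown by its 95% Wilson interval, 6.10 to 11.0% for the share in control 2 and 31.7 to 38.6% for that in STZ 3. Like the Pon3 level, these shares follow from the choice of the family and are given as a description. Pon2 accounted for 92.9% ± 1.39 of the reads in the control group and 61.1% ± 3.80 in the STZ group (SD, n = 3). Pon1 accounted for at most 1.97%, in control 3, where 6 of 305 paraoxonase reads came from it. Intervals and floors treat each read as independent, come from a single library and leave out the spread between libraries. The libraries were amplified by PCR without molecular identifiers, so even the counting error may be understated.

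**Figure D2:**
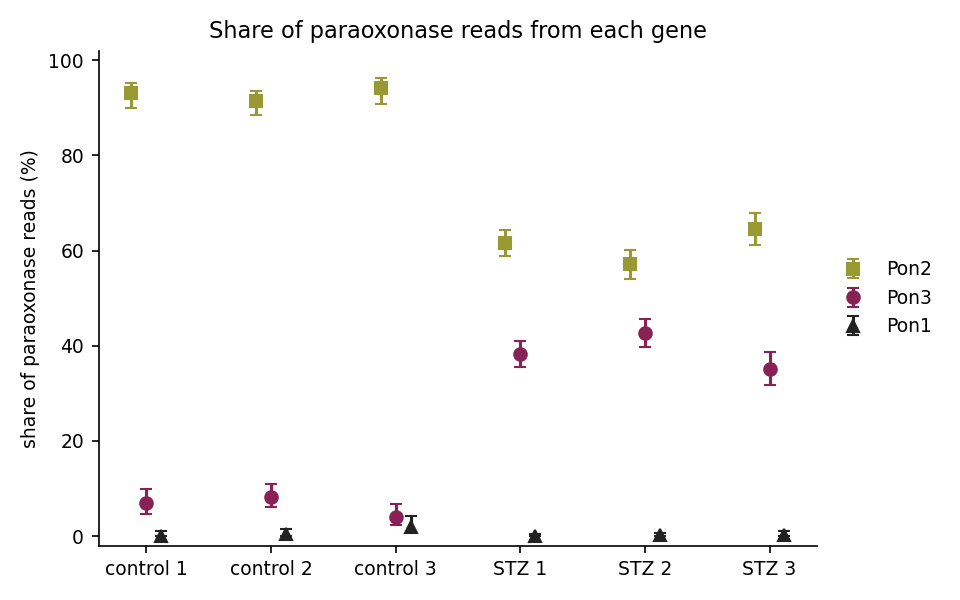
Share of the paraoxonase reads of each library that came from Pon2, Pon3 or Pon1 (points, %), with 95% Wilson intervals (bars). The Pon3 share was 3.93 to 8.23% in control and 35.1 to 42.7% in STZ libraries.

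The summed level of the family was 372, 371 and 339 normalized counts in control rats and 1149, 1040 and 741 in STZ rats. The control libraries lay within a narrow range, and the lowest STZ library, STZ 3, was above all of them. The means were 361 ± 18.5 and 976 ± 211 (SD, n = 3 each).

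No tested gene around the family differed between the groups by as much as Pon3. Since the family was chosen on this contrast, that order was largely set beforehand and is a description only. In rn4 the order along the chromosome is Pon1, Pon3, Pon2, with 35642 bases between Pon1 and Pon3 and 6028 between Pon3 and Pon2, and the whole cluster spans 132327 bases. Pon3 thus sits between its relatives, of which one was barely detected and the other differed far less. A further feature that spans Pon3 and Pon2 together held 1 read in STZ 3 and none elsewhere. The counting is not stated to use strand, and reads antisense to these genes would be counted with them.

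Within 1000000 bases of the cluster lay 13 other features, of which 6 were tested and 7 were too low. With limma 0 of the 6 passed the threshold, and 2 had an unadjusted p under 0.05, a cut met by 14.7% of all tested features. edgeR also called 0 of them. DESeq2 gave an adjusted p for 3 of the 6, not for Dync1i1, Pdk4 or Ppp1r9a, and called 0 of those 3. Their median log2 fold change was 0.49, against 0.01 over all tested features.

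The neighbour with the widest difference was Dync1i1, which encodes a cytoplasmic dynein intermediate chain. It was at 3.08, 9.15 and 14.5 normalized counts in control rats and at 32.5, 38.6 and 30.1 in STZ rats. Every STZ library was above every control library, a 4.01-fold higher level (SE 0.47 on the log2 scale, limma adjusted p = 0.0590). Over the alternative settings its adjusted p ran from 0.0192, without control 3, to 0.219, and it passed in 5 of the 17 that gave one.

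Col1a2, a chain of type I collagen, was at 111, 157 and 200.4 in control and 221, 191 and 295 in STZ rats. Its groups overlapped, with a log2 fold change of 0.61 (SE 0.25) and an adjusted p of 0.284. Ppp1r9a, which encodes the actin-binding scaffold neurabin and is the immediate neighbour of Pon1, was at 8.20 to 8.90 in control and 9.89 to 14.9 in STZ rats, with an adjusted p of 0.791. The other 3 overlapped between groups. Pdk4, a kinase that inhibits pyruvate dehydrogenase, had a log2 fold change of 0.60 (adjusted p = 0.593), Slc25a13, a mitochondrial aspartate-glutamate carrier, one of 0.26 (adjusted p = 0.624), and Bet1, a Golgi SNARE, one of -0.31 (adjusted p = 0.583).

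**Figure D3:**
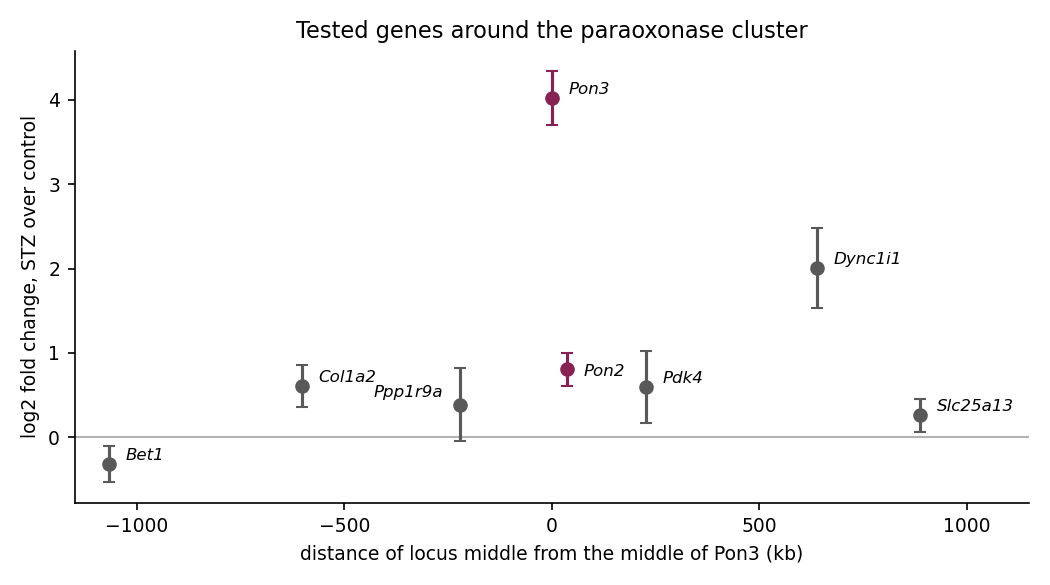
Fitted log2 fold change (STZ minus control, with SE) of the tested features within 1000000 bases of the cluster, plotted against distance from the middle of Pon3 in kb. Pon3 stands at 4.02, while the 6 tested neighbours lie between -0.31 (Bet1) and the log2 of 4.01-fold (Dync1i1).

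The genes whose profile over the 6 libraries was most like a member's were taken as the highest Pearson r of log2(normalized count + 1), among 9752 named features tested. With only 6 points from 2 separated groups, these r values describe a ranking and carry no p.

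For Pon3 the nearest profiles were Tacc2 (r = 0.997), a centrosomal coiled-coil protein, St3gal4 (0.997), a sialyltransferase, Ubl7 (0.993), a ubiquitin-like protein, Tspan1 (0.993), a tetraspanin, and Josd1 (0.990), a deubiquitinase. St3gal4 came closest in size too, at 59.5, 61.0 and 34.5 normalized counts in control and 495, 652 and 425 in STZ rats, a log2 fold change of 3.34 (SE 0.26). Like Pon3, it was lowest in control 3 among the control libraries and in STZ 3 among the STZ libraries. Such a shared order is largely set by the choice on r. The other 4 had log2 fold changes of 0.58 (Josd1), 0.79 (Tacc2), 0.87 (Tspan1) and 1.79 (Ubl7), far smaller than that of Pon3.

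For Pon2 they were Abcc3 (r = 0.9995), an export pump for organic anions, Tmem98 (0.998), a membrane protein, Rnf128 (0.997), a ubiquitin ligase, Rsph9 (0.996), a part of the radial spoke of motile cilia, and Ppp1r3c (0.992), a glycogen-targeting subunit of protein phosphatase 1. All 5 were highest in STZ 1 and lowest in control 3, as Pon2 was, which the choice by r largely sets. Their log2 fold changes ran from 0.45 (Rnf128) to 1.15 (Rsph9). Pon2 and Pon3 themselves had an r of 0.957 over the 6 libraries, and of 0.66 for deviations from their group means. The first value includes the group difference on which the family was chosen. No gene stood in the nearest 5 of both.

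**Figure D4:**
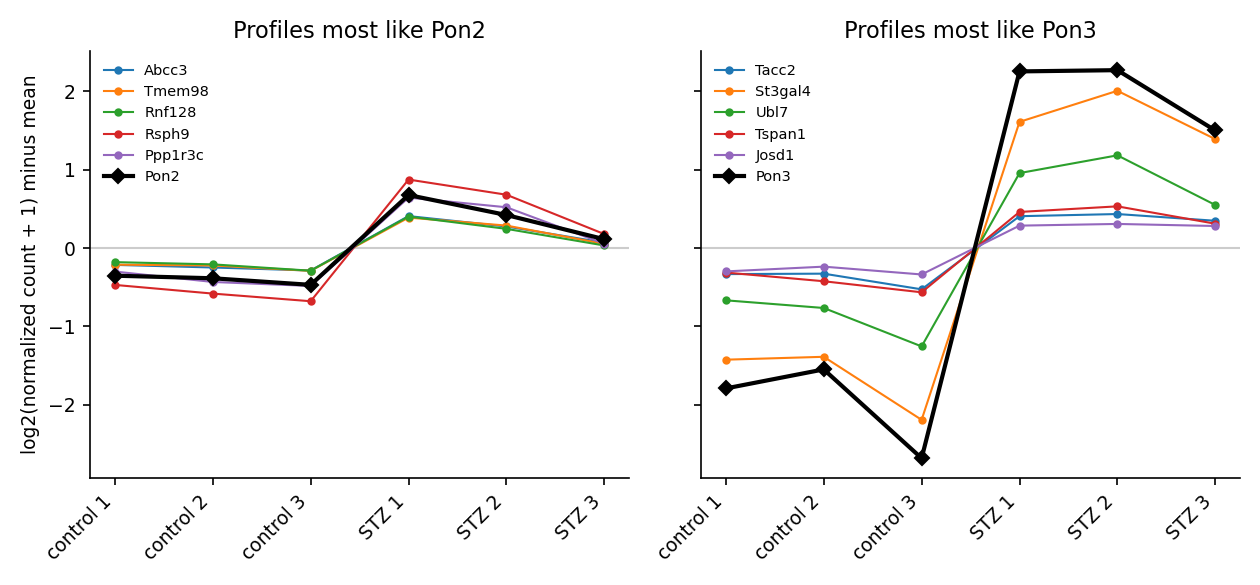
log2(normalized count + 1) minus its mean over the 6 libraries for Pon2 (left, black) and Pon3 (right, black) and the 5 genes most like each; lines only join the points of a gene. The genes near Pon2 differ between groups by a log2 of 0.45 to 1.15, while of those near Pon3 only St3gal4 (log2 fold change 3.34) is close to it in size.

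The other genes of paraoxonase biology were followed through 5 lists that name 136 genes. Of these, 120 were found and 98 were tested. The threshold was passed by 4 (4.08%, against 2.10% of all features), 3 of them higher and 1 lower in STZ rats. An unadjusted p under 0.05 was met by 21 (14.7% of all tested features did). The lists were chosen with earlier results of these data known, so these shares are a description only.

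The list of HDL particle and lipid transfer genes, the carriers and partners of secreted paraoxonase, held 1 gene that rose and 1 that fell among 14 tested. At an unadjusted p under 0.05 were 6 of the 14, edgeR called 2 and DESeq2 called 4. Lpl, lipoprotein lipase, was at 166, 261 and 171 normalized counts in control and 880 (STZ 1), 567 and 419 in STZ rats. The groups did not overlap, and Lpl rose by 1.60 on the log2 scale (SE 0.28, limma adjusted p = 0.0170). It no longer passed without control 1 (adjusted p = 0.0577) or without STZ 2 (0.0574), or without the intensity trend (0.161).

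Pla2g7, the plasma phospholipase that hydrolyses platelet-activating factor and oxidised phospholipids and also travels on lipoproteins, went the other way. It was at 362, 319 and 267 in control and 164, 148 and 90.3 in STZ rats, a log2 fold change of -1.26 (SE 0.25, limma adjusted p = 0.0276). It no longer passed without control 1 (0.0898), control 2 (0.121), STZ 2 (0.0693) or STZ 3 (0.0706), or without the intensity trend (0.169).

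Clu, clusterin or apolipoprotein J, had the highest counts of the list, at 4111, 3918 and 4594 in control and 2029, 2856 and 2074 in STZ rats. The groups did not overlap, but it missed the threshold with limma (log2 fold change -0.87, adjusted p = 0.0590) and passed it in 5 of 18 alternatives. Abcg1, which exports cholesterol to HDL, had a log2 fold change of -0.15 (adjusted p = 0.790). Apoa4, Apoa5, Apoc1, Apoc2, Apoc4 and Gpihbp1 were at or under 3 reads in every library. The median log2 fold change of the list was -0.06.

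Of 24 tested genes of the other lactone, ester and carbamate hydrolases, 0 passed the threshold with limma, 4 had an unadjusted p under 0.05, edgeR called 0 and DESeq2 called 1. Their median log2 fold change was 0.03. Ces2c, a carboxylesterase of a multigene family whose reads may be split among relatives, was at 1546, 1533 and 1168 in control and 2320, 2612 and 2523 in STZ rats. The groups did not overlap (log2 fold change 0.82, SE 0.19, limma adjusted p = 0.0544), and it passed in 5 of 18 alternatives. Ephx1, microsomal epoxide hydrolase, had a log2 fold change of 0.18 (adjusted p = 0.768), and Esd, esterase D, one of 0.06 (adjusted p = 0.950).

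The list of regulators linked to paraoxonase transcription also holds genes that such regulators drive, among them Nqo1. Of its 19 tested genes 1 rose and 0 fell, with a median log2 fold change of 0.17. At an unadjusted p under 0.05 were 4 of the 19, edgeR called 1 and DESeq2 called 2. Pparg, the nuclear receptor of lipid storage, was at 42.0, 58.7 and 28.9 normalized counts in control and 229, 128 and 152 in STZ rats. The groups did not overlap, and Pparg rose by 1.96 on the log2 scale (SE 0.30, limma adjusted p = 0.0087). It passed in 17 of 18 alternatives and missed the threshold without the intensity trend (0.110).

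Nqo1, a quinone reductase driven by the aryl hydrocarbon receptor and by Nrf2, was at 1096, 847 and 1011 in control and 1471, 2181 and 1248 in STZ rats. The groups did not overlap, yet the adjusted p was 0.165 (log2 fold change 0.70). Srebf2, the factor of cholesterol synthesis, had a log2 fold change of 0.73 (adjusted p = 0.207), and Nfe2l2, which encodes Nrf2, one of -0.23 (adjusted p = 0.668). Ppard, Rxrg, Nr1i2 and Cebpa were at or under 3 reads in every library.

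Among genes that form or remove lipid hydroperoxides, 1 of 29 tested rose and 0 fell, with a median log2 fold change of -0.09. At an unadjusted p under 0.05 were 6 of the 29, edgeR called 1 and DESeq2 called 3. Alox15b, a lipoxygenase that adds oxygen to arachidonic acid, was at 116, 42.0 and 42.3 in control and 466, 374 and 246 in STZ rats. Control 1 was the highest control library and still below every STZ library. Alox15b rose by 2.55 on the log2 scale (SE 0.38, limma adjusted p = 0.0075), in 17 of 18 alternatives and not without the intensity trend (0.118). The peroxiredoxins with the highest counts, enzymes that reduce peroxides, overlapped between groups: the log2 fold change was 0.34 for Prdx1, -0.10 for Prdx2 and -0.09 for Prdx6.

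Coenzyme Q, a partner of PON2 in mitochondria, was represented by 12 tested genes of its synthesis and function. With limma 0 passed the threshold, 1 had an unadjusted p under 0.05, edgeR called 0 and DESeq2 called 1, and the median log2 fold change was -0.03. The 3 with the highest counts, Coq10b, Coq9 and Coq6, had log2 fold changes of -0.08, -0.36 and 0.05. Over all features, edgeR called 2.13% and DESeq2 6.63% of those with an adjusted p.

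**Figure D5:**
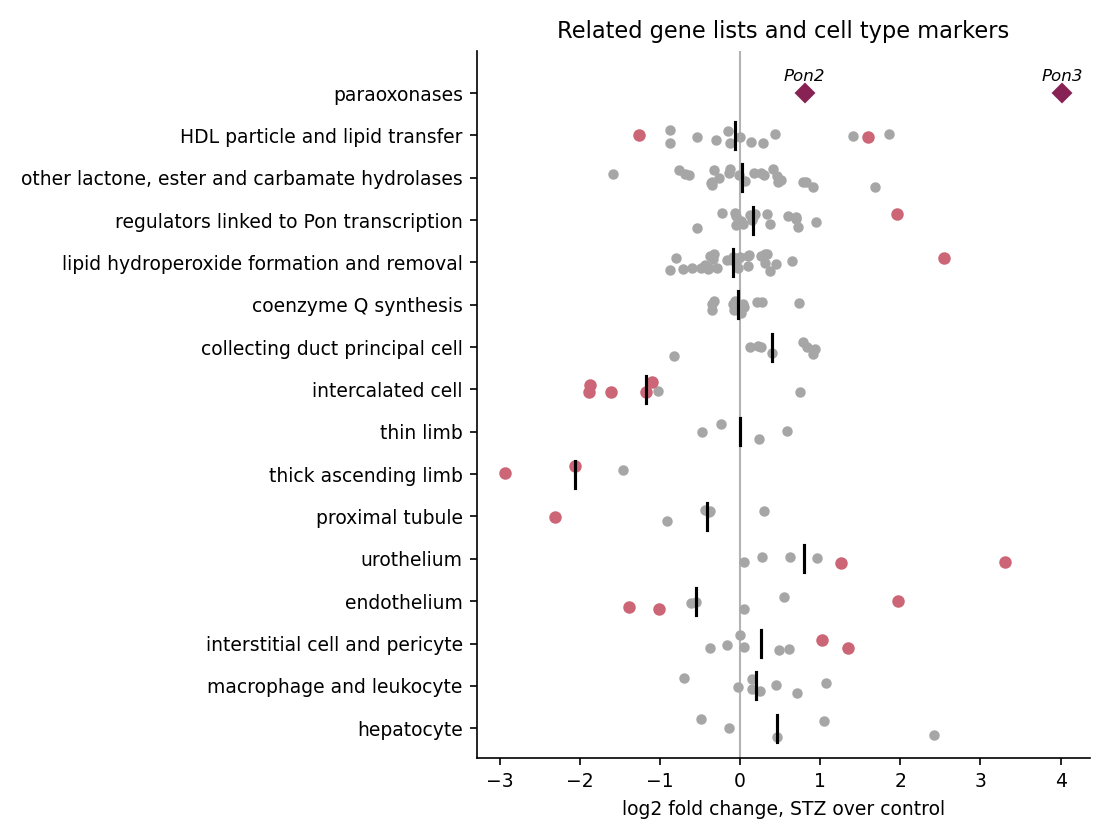
Fitted log2 fold change (STZ minus control) of every tested gene (points) in the 5 pathway lists and the 10 marker lists, with Pon2 (0.81) and Pon3 (4.02) for comparison; red points passed the threshold and black lines are medians. Most pathway genes lie near 0, with Alox15b at 2.55 and Pla2g7 at -1.26 among the 4 that passed the threshold.

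Markers of several cell types, not all of them cells of the IM tip, were followed as well. Only some of these lists held genes past the threshold. Principal cell markers of the collecting duct, an epithelium of this region, were present throughout (summed level 11083 to 19071 in control and 18660 to 35732 in STZ rats), and 0 of 9 tested passed with limma (5 at an unadjusted p under 0.05, 0 by edgeR, 2 by DESeq2). Urothelial markers were higher, with 2 of 6 tested called and a sum of 92.3 to 142 against 441 to 529. Upk3a, a urothelial plaque protein, was at 27.7, 28.2 and 50.1 in control and 332, 367 and 333 in STZ rats, where it made up most of the sum, while Krt13 was at or under 3 reads throughout. Intercalated cell markers fell in 5 of 7 tested (sum 2086 to 3834 against 1629 to 2213). Of all tested features, 2.10% were called with limma in either direction.

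Thick ascending limb markers fell in 2 of 3 tested (sum 1103 to 1894 against 212 to 599), and proximal tubule markers in 1 of 6 (261 to 489 against 108 to 165). Endothelial markers fell in 2 of 7 and rose in 1, with a sum of 7096 to 9194 against 3946 to 4337. Interstitial markers rose in 2 of 8 (7907 to 9505 against 5520 to 11663). The share called with limma was 2.10% over all tested features. None of 4 thin limb markers passed (2344 to 3656 against 2612 to 3340; 1 at an unadjusted p under 0.05, 0 by edgeR and by DESeq2), and none of 8 macrophage and leukocyte markers did (839 to 2270 against 1298 to 2124; 1 unadjusted, 0 by edgeR, 1 by DESeq2).

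Hepatocyte markers were examined because liver is the main source of PON1 and PON3. Their sum was 67.7 to 150.3 in control and 186 to 325 in STZ rats, and 0 of 5 tested passed with limma (2 at an unadjusted p under 0.05, 0 by edgeR and by DESeq2). The higher sum came mainly from Serpina1, alpha-1 antitrypsin, at 10.3, 83.9 and 16.7 in control and 100.3, 119 and 213 in STZ rats (adjusted p = 0.0710). Alb, the defining liver transcript, was at 6.15 to 17.8 in control and 3.71 to 16.1 in STZ rats, and Ttr exceeded 3 reads in 1 library. The part of any of these cell types in the Pon2 and Pon3 values was not tested.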

How the data were processed

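Total RNA of IM tip was made into cDNA with a PCR-based kit and sequenced on an Illumina sequencer by the authors. Per the labels' processing notes, STAR 2.3.1t, DESeq 1.16.0 and build rn4 were used. The deposited signal values are counts per feature divided by DESeq size factors; no strand setting was given in the sources used here. Of 27321 features, 2720 are named for more than 1 gene and were kept as they are. Every value was a whole multiple of the library's smallest step (100.0% within 0.01), which gave back the reads.

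Features with a mean of at least 5 were tested with limma 3.58.1 (R 4.3.3) on log2(value + 1), with an intensity trend and Benjamini-Hochberg adjustment at 0.05. The fold changes understate low genes. The pipeline was tested on simulated data. Alternatives changed the pseudocount, filter, scaling and prior variance, added the replicate number as a block, left out each library, or ran edgeR 4.0.16 (287 calls) and DESeq2 1.42.0 (599 calls) on the reads. The members, lists and tests were chosen with earlier results of these data known. Named genes were the members, tested neighbours within 1000000 bases, list genes past the threshold, the 3 with the highest mean of each pathway list, and the 5 profiles most like Pon2 and Pon3. Marker genes were named where their list was described. Promoters came from RefSeq, build GRCr8, and were not joined to rn4 positions.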

Additional observations from a re-analysis of the deposited data

How the results depend on the processing

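Over the 18 alternatives the log2 fold change of Pon3 stayed between 3.68 and 4.27 and that of Pon2 between 0.67 and 0.95. The fit placed 1 member past the threshold, and 2 with a minimum mean of 20, no filter, equal library totals, quantile normalization, DESeq2 and the replicate block, where 4.32%, 1.59%, 2.88%, 3.87%, 6.63% and 4.16% of features were called; nothing is read from these counts, since the family was chosen on this contrast. The number of features called was 283, and it became 522 with quantile normalization, 31 without the intensity trend and 599 with DESeq2. It ran from 88 (without STZ 2) to 352 (without control 3) when 1 library was left out, and was 182 without control 1, 101 without control 2, 141 without STZ 1 and 163 without STZ 3. The share of calls that were higher in STZ rats was 55.8%, against 67.7% without the intensity trend and 45.4% without STZ 1. The number of pathway list genes called was 4, and it became 7 with a minimum mean of 20, 8 with equal totals, 11 with quantile normalization, 0 without the trend, 11 with DESeq2 and 2 to 7 when 1 library was left out (2 without control 1 or STZ 2, 7 without control 3). The cause of these shifts was not tested.

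In the labels, control and STZ rats share only a number. The paper names a paired t-test for its quantitative PCR but does not say which libraries would form pairs. With the replicate block 561 features, 10 pathway list genes and 2 members were called. Same-numbered libraries deviated together with r = 0.39, -0.06 and 0.32, and STZ 2 correlated better with control 3 (0.22). With 3 libraries a group these r values are tied to each other and cannot show whether the numbers mark pairs. No pairs are named in the labels, so the main fit used none.

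Pon1, at 0 to 6 reads, is limited by depth, and a small difference in it was not detectable. Only control 3 exceeded 3 reads. With 3 libraries a group, lane follows condition.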
